A study of Mus musculus with 6 samples.

Results

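The genes described here are 7 that encode parts of the phagocyte NADPH oxidase and its partners, namely Cybb, Cyba, Ncf1, Ncf4, Rac1, Rac2 and Hvcn1. They were picked by symbol from the 24312 gene rows of the authors' deposited table, and each of the 7 symbols stood on 1 row that had been tested. RNA was measured in bone-marrow-derived myeloid-derived suppressor cells (MDSCs), immature myeloid cells that restrain T cells. There were 3 libraries from Pim1 knockout mice (Pim1-/-) and 3 from wild-type C57BL/6 mice. The labels give C57BL/6 as the strain of both genotypes and give no age, sex or design of the Pim1 allele. The labels give 1 culture protocol for both genotypes: femur marrow stayed in culture for 7 days with 40 ng/mL of GM-CSF and 40 ng/mL of IL-6, and the labels name the population CD11b+ Gr1+. Smart-seq2, a full-length cDNA method that primes on the poly(A) tail, was used for the libraries. The comparison asks how RNA of these genes differs when the cytokine-induced kinase Pim1 is missing.

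The phagocyte oxidase moves electrons from NADPH across a membrane onto oxygen and so makes superoxide. Its core in the membrane is a heterodimer of the catalytic flavocytochrome chain (Cybb, also called Nox2) and its stabilizing partner (Cyba). On stimulation, a cytosolic complex that includes the organizer (Ncf1) and an adaptor that binds phosphoinositides (Ncf4) joins the core together with a GTP-bound Rac protein, and a proton channel (Hvcn1) carries out the charge that the electrons leave behind. In MDSCs the reactive oxygen made in this way is one of the known means of restraining T cells, and STAT3 is known to raise oxidase subunits in these cells.

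The authors' deposited table holds 1 pooled value per gene and genotype, read here as FPKM (fragments scaled by transcript length and library size), so a level carries no error of its own. A gene was called where the deposited adjusted p was under 0.05. Errors printed here are the log2 fold change over the deposited test statistic, and the 95% intervals rest on them. Pooled RNA of a mixed population cannot tell fewer cells of a type from less RNA per cell. Pim1 itself stood at 22.7 FPKM in Pim1 knockout, against 90.2 FPKM in wild type, per the authors' deposited table (log2 fold change -1.99, error 0.25, adjusted p = 0.000831), and which part of the gene the remaining reads came from is not shown. The antigens that name the population were present: Itgam (CD11b) was at 152 FPKM in Pim1 knockout and 139 FPKM in wild type, and of the Gr1 antigens Ly6c2 was at 997 FPKM in Pim1 knockout and 392 FPKM in wild type and Ly6c1 at 15.4 FPKM in Pim1 knockout and 5.74 FPKM in wild type, per the authors' deposited table. Ly6c1 and Ly6c2 are near-identical, so their values are uncertain, and Ly6g was not analysed here.

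Of the 7 genes, Cybb, the catalytic chain, fell in Pim1 knockout, and 0 rose. Cybb had 157 FPKM in Pim1 knockout cells, against 235 FPKM in wild-type cells, in the authors' deposited table. Its pooled level was 1.50-fold lower in Pim1 knockout, or -0.58 on the log2 scale (error 0.24, 95% interval -1.05 to -0.12), with a deposited adjusted p of 0.000831. No smaller adjusted p occurs in the authors' deposited table, and 667 genes share it. Over all genes 13.5% of 11079 tested were called, 752 (6.79%) higher and 746 (6.73%) lower in Pim1 knockout, so 1 call among 7 genes is near the share of all genes. With both genotypes scaled to equal sums the split over all genes was 1052 higher and 614 lower. The Cybb call was lost when the deposited statistic, -2.46, was taken as a normal deviate in place of the deposited p (adjusted p = 0.24), and 0 of the 7 genes were then called, beside 3.31% of 11049 tested genes.

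Cyba, the partner chain that Cybb needs for stability, was the most abundant of the 7 genes and was not called. It had 2387 FPKM in Pim1 knockout and 2209 FPKM in wild type, per the authors' deposited table, with a log2 fold change of 0.11 (95% interval -0.36 to 0.58, adjusted p = 0.713). Per length, Cyba RNA was thus 15.2 times Cybb RNA in Pim1 knockout and 9.40 times in wild type. The difference between the fold changes of these partners was not tested, since both come from the same pooled libraries.

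**Figure D1:**
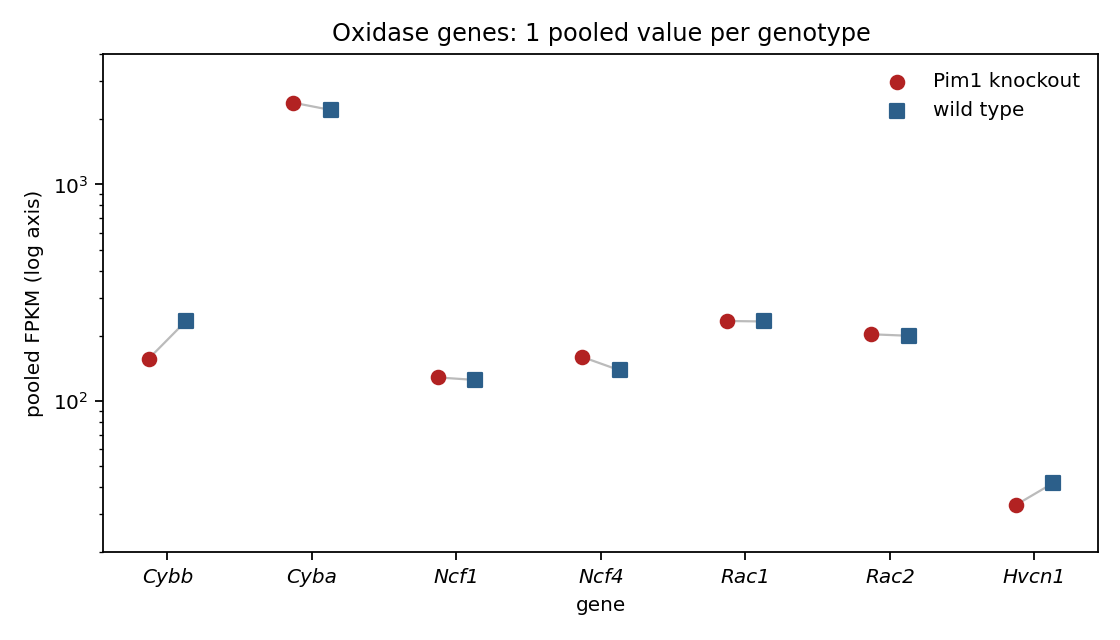
Pooled FPKM (log axis) of the 7 oxidase genes, with Pim1 knockout as red circles and wild type as blue squares, 1 pooled value each and no error bars. Cyba stands highest, at 2387 FPKM in Pim1 knockout and 2209 FPKM in wild type, and Cybb has the widest gap on the log axis, 157 FPKM in Pim1 knockout and 235 FPKM in wild type.

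Neither cytosolic subunit among the 7 genes was called. Ncf1, the organizer that carries the complex to the membrane, had 129 FPKM in Pim1 knockout and 125 FPKM in wild type, per the authors' deposited table (log2 fold change 0.04, 95% interval -0.41 to 0.49, adjusted p = 0.918). Ncf4, the phosphoinositide-binding adaptor, had 160 FPKM in Pim1 knockout and 139 FPKM in wild type, per the authors' deposited table (log2 fold change 0.21, 95% interval -0.25 to 0.66, adjusted p = 0.367).

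The Rac proteins, small GTPases that switch the assembled oxidase on, had nearly the same pooled level in both genotypes. Rac1, which most cells express, had 234 FPKM in Pim1 knockout and 233 FPKM in wild type, per the authors' deposited table (log2 fold change 0.01, 95% interval -0.45 to 0.47, adjusted p = 0.988). Rac2, the blood cell form and the main Rac of the neutrophil oxidase, had 203 FPKM in Pim1 knockout and 200.1 FPKM in wild type, per the authors' deposited table (log2 fold change 0.02, 95% interval -0.43 to 0.48, adjusted p = 0.952). Per length, Rac1 RNA was 1.15 times Rac2 RNA in Pim1 knockout and 1.16 times in wild type. Both intervals overlap that of Cybb (-1.05 to -0.12), and the difference of either Rac gene from Cybb was not tested.

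Hvcn1, the voltage-gated proton channel, was the least abundant of the 7 and was not called. It had 33.0 FPKM in Pim1 knockout and 41.8 FPKM in wild type, per the authors' deposited table. Its log2 fold change was -0.34 with the widest error of the 7 genes, 0.36, and a 95% interval of -1.04 to 0.36 (adjusted p = 0.328). B cells are another known source of Hvcn1 RNA. Of 9 measured B cell markers Ms4a1 and Pax5 were listed at 0 in both genotypes, 4 more were not above 0.26 FPKM, and Cd79b and Blnk were not called, at 1.27 and 6.80 FPKM in Pim1 knockout and 0.968 and 7.61 FPKM in wild type, per the authors' deposited table. Cd22 fell to 3.61 FPKM in Pim1 knockout, against 7.88 FPKM in wild type, per the authors' deposited table (adjusted p = 0.000831), and the part of B cells in the Hvcn1 values was not tested.

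**Figure D2:**
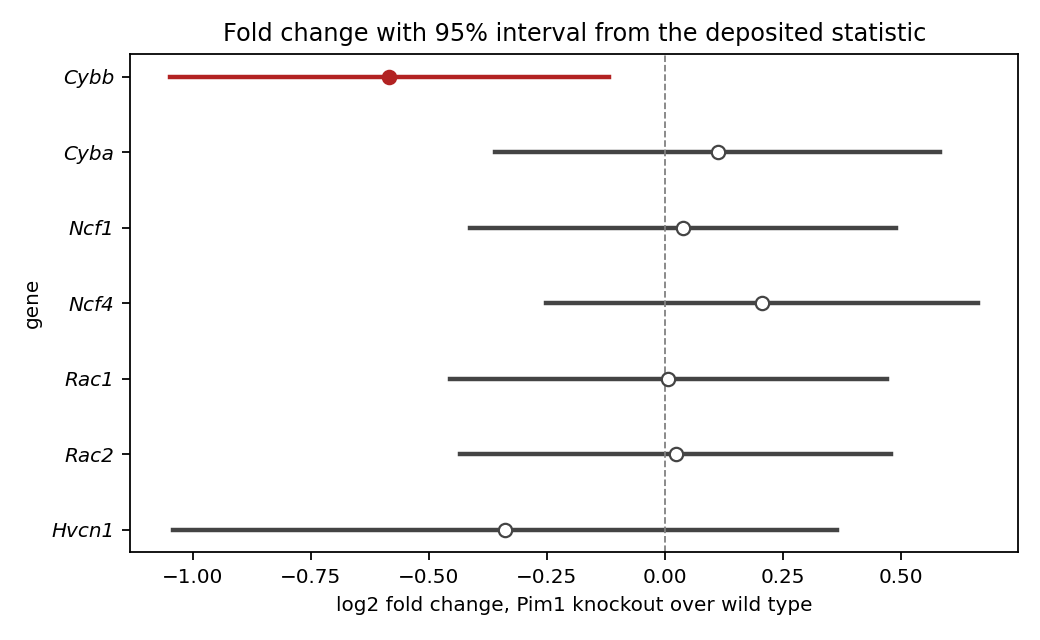
Log2 fold change of Pim1 knockout over wild type for the 7 oxidase genes, with horizontal lines for 95% intervals from the deposited test statistic; the filled red point is called, open points are not. The interval of Cybb (-1.05 to -0.12) lies below 0, and the others include 0.

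Within the 7 genes the order of pooled levels differed in the place of Cybb and in nothing else. In Pim1 knockout the order from high to low was Cyba, Rac1, Rac2, Ncf4, Cybb, Ncf1 and Hvcn1. In wild type it was Cyba, Cybb, Rac1, Rac2, Ncf4, Ncf1 and Hvcn1, so that Cybb ranked 5 in Pim1 knockout and 2 in wild type. No spread over libraries is held for these levels, so neighbours in either order cannot be separated. By mean FPKM the 7 genes lay between percentile 80.9 (Hvcn1) and 99.5 (Cyba) of the tested genes. Their median log2 fold change was 0.02, against 0.01 over all tested genes, and in absolute size the fold change of Cybb lay at percentile 87.3 of them.

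**Figure D3:**
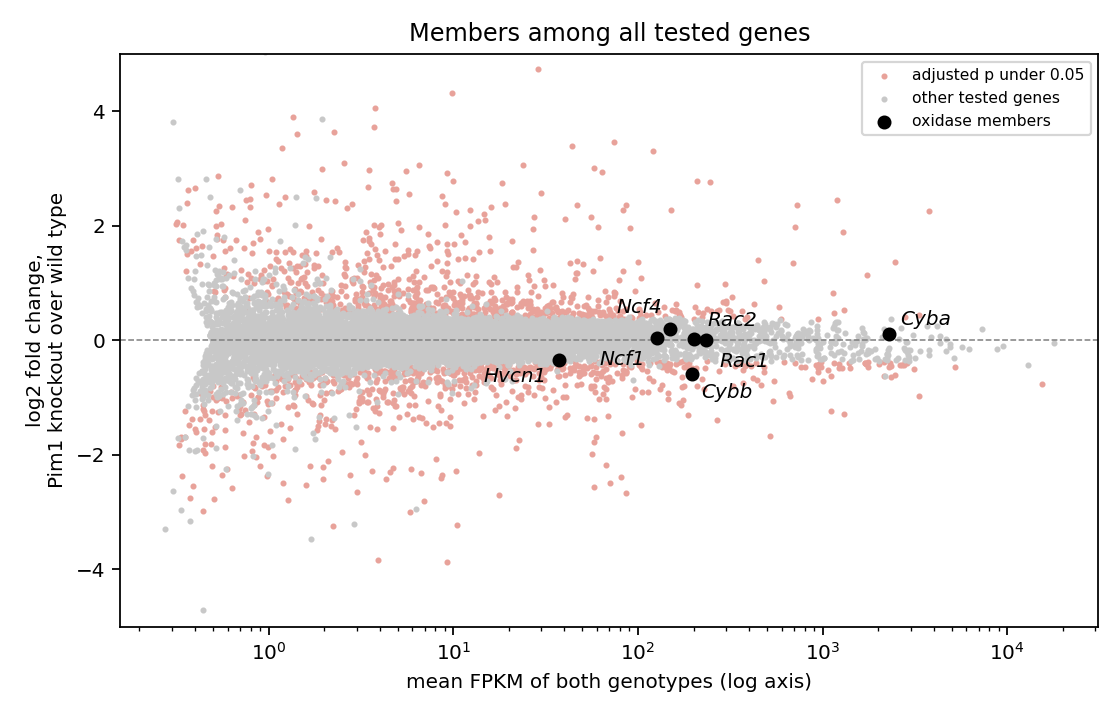
Log2 fold change of Pim1 knockout over wild type against mean FPKM of both genotypes (log axis) for 11049 tested genes with a finite fold change, called genes in pink and others in grey; 12 genes lie outside the vertical range. The 7 oxidase genes, in black, sit on the abundant side, with Cybb at -0.58 and Rac1 at 0.01.

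The genes lie on the X and on 3 autosomes in the coordinates of the authors' deposited table. Cybb is on chromosome X (9012380 to 9046450) and Cyba on chromosome 8 (124948671 to 124956840). Chromosome 5 holds Hvcn1 (122659738 to 122714469), Ncf1 (134695923 to 134705495) and Rac1 (144266349 to 144288861). Chromosome 15 holds Ncf4 (78075241 to 78093010) and Rac2 (78389599 to 78403213). The submitters' processing notes name mm10, yet 0 of these 7 spans overlapped the gene's RefSeq position in GRCm38.p6, although 7 of 7 were on the same chromosome, which leaves the build behind these positions unsettled here.

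Because Cybb is X-linked, genes that tell the sexes apart were set beside it. Of Y-linked genes, Eif2s3y had 0.0191 FPKM in Pim1 knockout and 6.79 FPKM in wild type (adjusted p = 0.537), and Ddx3y had 0.0103 FPKM in Pim1 knockout and 2.56 FPKM in wild type (adjusted p = 0.385), per the authors' deposited table. Xist, the RNA of the inactive X, was present in both genotypes, at 7.21 FPKM in Pim1 knockout and 5.21 FPKM in wild type, per the authors' deposited table (adjusted p = 0.0262). With the statistic read as a normal deviate, Eif2s3y and Ddx3y were both called lower (adjusted p = 0.0061 and 3.3e-05) and Xist was not called (adjusted p = 0.735). Genotype and the sex of the animals therefore cannot be told apart for Cybb or for any other gene described here. Of 332 tested X-linked genes 18 were higher and 31 lower in Pim1 knockout (14.8% called, median log2 fold change -0.02). Of 10742 autosomal genes 734 were higher and 715 lower (13.5% called, median 0.01).

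The 3 promoter windows that RefSeq gave for these genes (GRCm38.p6, 250 bases before to 50 after an annotated start) are shown because they hold or lack letters known to be bound by myeloid and interferon factors, some of whose own RNA is given further on. All 3 genes lie on the minus strand. Capitals mark matches on either strand to GAGGAA (the core bound by PU.1, the product of Spi1), CCAAT, TTCNNNGAA (STAT), pairs of GAAA 2 bases apart (IRF) and GGGCGG (the GC box). The windows are chrX:9469275-9469574 for Cybb, chr8:122432891-122433190 for Cyba and chr5:134229576-134229875 for Ncf1.
Cybb: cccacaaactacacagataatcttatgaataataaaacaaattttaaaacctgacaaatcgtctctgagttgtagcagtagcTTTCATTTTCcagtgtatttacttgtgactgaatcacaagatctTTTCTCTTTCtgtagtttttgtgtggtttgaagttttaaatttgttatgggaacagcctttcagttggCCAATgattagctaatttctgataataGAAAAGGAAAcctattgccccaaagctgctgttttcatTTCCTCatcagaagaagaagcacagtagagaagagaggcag
Cyba: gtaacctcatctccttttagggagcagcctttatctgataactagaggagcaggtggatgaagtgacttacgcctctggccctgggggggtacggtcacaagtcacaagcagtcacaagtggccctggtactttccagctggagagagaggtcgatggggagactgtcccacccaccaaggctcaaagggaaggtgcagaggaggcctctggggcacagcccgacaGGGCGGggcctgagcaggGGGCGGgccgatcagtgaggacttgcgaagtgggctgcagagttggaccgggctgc
Ncf1: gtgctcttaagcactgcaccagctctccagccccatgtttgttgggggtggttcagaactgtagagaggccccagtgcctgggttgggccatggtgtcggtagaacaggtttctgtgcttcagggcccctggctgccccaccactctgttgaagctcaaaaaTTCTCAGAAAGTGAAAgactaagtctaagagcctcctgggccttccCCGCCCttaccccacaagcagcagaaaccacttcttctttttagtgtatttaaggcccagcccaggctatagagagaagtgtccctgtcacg
The Cybb window held 3 matches to the IRF pair, 1 to GAGGAA and 1 to CCAAT, and none to the STAT or GC box letters. Of 32851 promoter windows of the same length 3.44% held the IRF letters at least once and 5 windows held them 3 times or more, while 28.3% held GAGGAA and 37.4% held CCAAT. The Cyba window held 2 GC boxes (a motif in 35.7% of windows) and no other match. The Ncf1 window held 1 STAT match (8.30% of windows) and 1 IRF match that overlap each other, and 1 GC box. The motifs were chosen after these windows were seen, and the cut of 3 or more is the count of Cybb itself. The 5 windows include that of Cybb, so nothing is read from these shares. A match is a run of letters and does not show that a factor bound there.

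Of the 18 tested transcription factors of oxidase genes that are reported here, 0 rose and 2 fell in Pim1 knockout (median log2 fold change -0.06). Over all tested genes 13.5% were called. Stat3, which carries the IL-6 signal, fell to 26.0 FPKM in Pim1 knockout, against 36.5 FPKM in wild type (log2 fold change -0.49, error 0.23, adjusted p = 0.00287 in the authors' deposited table). Junb, an AP-1 factor, fell to 136 FPKM in Pim1 knockout, against 211 FPKM in wild type, per the authors' deposited table (log2 fold change -0.63, adjusted p = 0.000831). With the statistic read as a normal deviate 0 of the 18 were called, beside 3.31% of all genes. Named outside the rule, the myeloid factors Spi1 (382 FPKM in Pim1 knockout and 359 FPKM in wild type) and Irf8 (52.7 FPKM in Pim1 knockout and 54.8 FPKM in wild type) were not called in the authors' deposited table (adjusted p = 0.77 and 0.873).

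Receptors and adaptors that act on the burst, a list that includes the inhibitory Fcgr2b, were called 2 higher and 7 lower of 20 tested. Their median log2 fold change was -0.23. This was the largest share among the wider oxidase lists, beside 13.5% of all tested genes. The list was made with earlier results of these data known, so nothing is read from that share. Fpr2, a formyl peptide receptor, fell to 44.3 FPKM in Pim1 knockout, against 90.6 FPKM in wild type, per the authors' deposited table (log2 fold change -1.03, error 0.24, adjusted p = 0.000831). The beta-glucan receptor Clec7a fell to 93.6 FPKM in Pim1 knockout, against 169 FPKM in wild type, per the authors' deposited table (log2 fold change -0.85, adjusted p = 0.000831). Fcgr4, an activating IgG receptor, fell to 40.8 FPKM in Pim1 knockout, against 75.8 FPKM in wild type, per the authors' deposited table (log2 fold change -0.89, adjusted p = 0.000831). Named after their values were seen, Fpr1, Csf2ra, Fcgr3 and the inhibitory IgG receptor Fcgr2b also fell, and the high-affinity IgG receptor Fcgr1 (90.4 FPKM in Pim1 knockout and 61.4 FPKM in wild type) and the complement receptor C5ar1 (165 FPKM in Pim1 knockout and 111 FPKM in wild type) rose in the authors' deposited table. Fcgr2b and Fcgr3 share much of their sequence, so their values are uncertain. With the statistic read as a normal deviate 3 of the 20 were called, all lower, beside 3.31% of all genes.

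Genes for proteins that help the oxidase to assemble, stay stable or become phosphorylated were called 4 higher and 1 lower of 22 tested (median log2 fold change -0.07). The share called over all tested genes was 13.5%. The calprotectin genes S100a9 and S100a8, whose product carries arachidonic acid to the neutrophil oxidase, had the largest rises on that list, by 2.46 and 2.26 on the log2 scale (errors 0.23 and 0.24, adjusted p = 0.000831 each in the authors' deposited table). Both are also on the list of neutrophil markers given further on. Pld2, a phospholipase D that makes phosphatidic acid, fell to 5.67 FPKM in Pim1 knockout, against 9.03 FPKM in wild type, per the authors' deposited table (log2 fold change -0.67, error 0.27, adjusted p = 0.000831). Named after their values were seen, Nrros, which in mouse phagocytes promotes degradation of the Cybb protein, rose to 82.2 FPKM in Pim1 knockout, against 58.3 FPKM in wild type, per the authors' deposited table (log2 fold change 0.50, error 0.23, adjusted p = 0.00156). Prdx6, a peroxiredoxin with phospholipase activity, rose to 136 FPKM in Pim1 knockout, against 100.2 FPKM in wild type, per the authors' deposited table (adjusted p = 0.00968). Read as a normal deviate, the statistic called S100a8 and S100a9 and 0 others of this list, beside 3.31% of all genes.

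Rac regulators were called 4 higher and 0 lower of 21 tested, beside 13.5% of all tested genes, with a median log2 fold change of 0.03. Dock8, an exchange factor that acts chiefly on Cdc42, rose to 13.3 FPKM in Pim1 knockout, against 8.35 FPKM in wild type, per the authors' deposited table (log2 fold change 0.68, error 0.24, adjusted p = 0.000831). Vav3 (1.95 FPKM in Pim1 knockout and 1.17 FPKM in wild type) and Tiam1 (1.47 FPKM in Pim1 knockout and 0.929 FPKM in wild type), both exchange factors of Rac, rose as well in the authors' deposited table (adjusted p = 0.00773 and 0.00919). The fourth was Elmo1, the partner of Dock proteins, named after its value was seen. At a pseudocount of 1 FPKM 1 of these calls was left, and none when the statistic was read as a normal deviate. Over all genes 8.88% and 3.31% were then called. Of 10 small GTPases related to Rac 0 rose and 1 fell: Rhoc, which is not known as an oxidase part, had 27.4 FPKM in Pim1 knockout and 54.6 FPKM in wild type, per the authors' deposited table (log2 fold change -0.998, error 0.26, adjusted p = 0.000831). Rhoc stayed the 1 call of these 10 with the statistic read as a normal deviate (adjusted p = 0.0066), beside 3.31% of all genes.

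Genes for charge and pH balance, a list that includes Hvcn1, were called 0 higher and 3 lower of 12 tested (median log2 fold change -0.05), beside 13.5% of all tested genes. Car4, a membrane carbonic anhydrase, fell to 249 FPKM in Pim1 knockout, against 794 FPKM in wild type, per the authors' deposited table (log2 fold change -1.67, error 0.24, adjusted p = 0.000831). The potassium channel Kcna3 (2.19 FPKM in Pim1 knockout and 4.62 FPKM in wild type) and the cytosolic carbonic anhydrase Car2 (1.81 FPKM in Pim1 knockout and 3.11 FPKM in wild type) also fell in the authors' deposited table (adjusted p = 0.000831 and 0.0245). Both are low, and with a mean of at least 10 FPKM required, 1 call was left, that of Car4, as it was with the statistic read as a normal deviate. Over all genes 14.6% and 3.31% were then called.

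Enzymes that supply NADPH, the electron donor, were called 0 higher and 1 lower of 14 tested (median log2 fold change -0.02), beside 13.5% of all tested genes. The called gene was Idh1, the cytosolic NADP-dependent isocitrate dehydrogenase, which fell to 125 FPKM in Pim1 knockout, against 220 FPKM in wild type, per the authors' deposited table (log2 fold change -0.81, error 0.23, adjusted p = 0.000831). Idh1 stayed the 1 call of this list with the statistic read as a normal deviate (adjusted p = 0.0178), beside 3.31% of all genes. Genes for handling superoxide and peroxide, a list that includes wider antioxidant genes such as Gclc and Hmox1, were called 3 higher and 2 lower of 19 tested (median log2 fold change -0.13). Cytosolic superoxide dismutase, Sod1, rose to 315 FPKM in Pim1 knockout, against 220 FPKM in wild type, per the authors' deposited table (log2 fold change 0.52, error 0.24, adjusted p = 0.00223). The secreted peroxidase Gpx3 rose to 150.4 FPKM in Pim1 knockout, against 106 FPKM in wild type, and the neutrophil granule peroxidase Mpo to 0.826 FPKM in Pim1 knockout, against 0.232 FPKM in wild type, per the authors' deposited table (adjusted p = 0.00452 and 0.0051). Named after their values were seen, mitochondrial Sod2 (126 FPKM in Pim1 knockout and 170 FPKM in wild type) and Prdx4 of the endoplasmic reticulum (157 FPKM in Pim1 knockout and 213 FPKM in wild type) fell in the authors' deposited table (adjusted p = 0.0123 and 0.0127). Read as a normal deviate, the statistic called none of the 19, beside 3.31% of all genes.

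Other oxidases of the family were at or near 0. Of 10 measured genes on the list of other subunits and partners, 1 was tested: BC017643, which had 42.7 FPKM in Pim1 knockout and 40.0 FPKM in wild type, per the authors' deposited table, and was not called (adjusted p = 0.784). The remaining 9 (Nox1, Nox3, Nox4, Noxo1, Noxa1, Duox1, Duox2, Duoxa1 and Duoxa2) were not above 0.34 FPKM in either genotype. Over the 9 wider lists, with each gene counted once and the 7 genes left out, 13 rose and 17 fell of 136 tested, or 22.1%, beside the 13.5% of all genes; the lists were made with earlier results of these data known, so nothing is read from that gap.

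**Figure D4:**
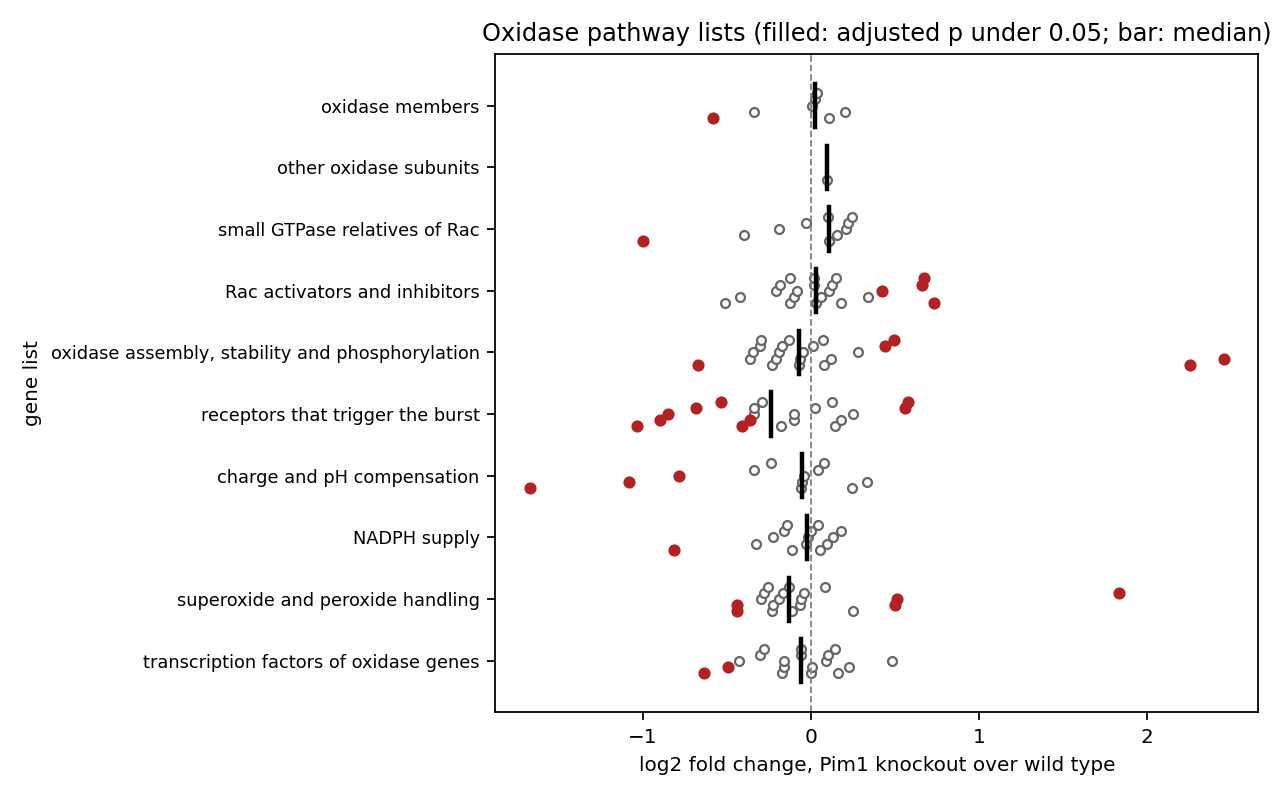
Log2 fold change of Pim1 knockout over wild type for each tested gene of the 7-gene set (top) and of 9 wider lists, with filled red points for called genes and black bars for medians. The burst receptors have the lowest median, -0.23, and S100a8 and S100a9 stand apart at 2.26 and 2.46 on the assembly list.

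Markers of cell types moved in the same comparison, in which 13.5% of all tested genes were called. Of 12 measured neutrophil markers 9 rose and 0 fell (median log2 fold change 1.10), while Mmp8, Cxcr2 and Retnlg were not called. Mmp8 had 768 FPKM in Pim1 knockout and 735 FPKM in wild type. Cxcr2 had 3.41 FPKM in Pim1 knockout and 3.29 FPKM in wild type, and Retnlg 3.19 FPKM in Pim1 knockout and 4.12 FPKM in wild type. The list mixes granule genes with receptors, so its counts do not show how mature such cells were. The summed level of the 12 was 9432 FPKM in Pim1 knockout, against 2527 FPKM in wild type, and S100a8 and S100a9 made up most of it. Without that pair the other 10 summed to 1146 FPKM in Pim1 knockout and 849 FPKM in wild type, and most of either sum was Mmp8. Genes on the granulocyte precursor list, not all of them granule genes or particular to precursors, were called 4 higher (Mpo, Elane, Ms4a3 and Fcnb) and 2 lower (Hp and Igsf6) of 10 tested, with a median log2 fold change of 0.71. Their sum ran the other way, at 1285 FPKM in Pim1 knockout and 1810 FPKM in wild type, and most of that gap was Hp, with 448 FPKM in Pim1 knockout and 875 FPKM in wild type, per the authors' deposited table; without Hp the sums were 837 FPKM in Pim1 knockout and 935 FPKM in wild type. Monocyte markers (5 higher and 3 lower of 12) summed to 1855 FPKM in Pim1 knockout and 1541 FPKM in wild type. Ly6c2, whose value is uncertain, was the largest part of that sum (997 FPKM in Pim1 knockout and 392 FPKM in wild type). The other monocyte genes together summed lower in Pim1 knockout than in wild type. Macrophage markers (0 higher and 1 lower of 13) summed to 8928 FPKM in Pim1 knockout and 7910 FPKM in wild type. Dendritic cell markers (2 higher and 2 lower of 7 tested) summed to 3094 FPKM in Pim1 knockout and 3458 FPKM in wild type. Most of the dendritic sum was Cd74, at 1990 FPKM in Pim1 knockout and 2629 FPKM in wild type. Of the 11 measured dendritic cell genes 6 were under 1 FPKM in both genotypes. Eosinophil and mast cell markers summed to 11.2 FPKM in Pim1 knockout and 14.1 FPKM in wild type (1 higher and 3 lower of 6 tested). B cell markers summed to 12.2 FPKM in Pim1 knockout and 16.8 FPKM in wild type (0 higher and 1 lower of 3). Stromal markers summed to 8.98 FPKM in Pim1 knockout and 5.66 FPKM in wild type (1 higher and 1 lower of 2 tested). Most of the stromal sum was Pecam1, at 7.77 FPKM in Pim1 knockout and 3.69 FPKM in wild type. Of the 8 measured stromal genes 6 were under 1 FPKM in both genotypes. The 9 T and NK cell markers and the 6 erythroid markers measured were each under 1 FPKM in both genotypes. With the statistic read as a normal deviate, 3.31% of all genes were called. The counts were then 7 higher and 0 lower for neutrophils, and 2 higher and 1 lower for granulocyte precursors. They were 2 higher and 2 lower for monocytes, 0 higher and 1 lower for macrophages, and 2 higher and 1 lower for dendritic cells. For eosinophils and mast cells they were 0 in either direction, for B cells 0 higher and 1 lower, and for stroma 1 higher and 0 lower. The part of cell mixture in the fall of Cybb was not tested.

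The tested genes most like Cybb, by distance between the log2 values of both genotypes (2 pooled values per gene), were Alas1, Snx5 and Gsto1. Alas1, the first enzyme of haem synthesis, had 164 FPKM in Pim1 knockout and 229 FPKM in wild type, per the authors' deposited table, a distance of 0.07 from Cybb. Snx5 (155 FPKM in Pim1 knockout and 215 FPKM in wild type) and Gsto1 (172 FPKM in Pim1 knockout and 241 FPKM in wild type) were at distances of 0.13 and 0.13 in the authors' deposited table. With 2 values per gene such likeness describes level and fold change and nothing further.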

How the data were processed

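All values came from 1 gene table of the series, in which the authors' deposited values are pooled over the libraries of a genotype. These deposited levels were taken as FPKM from the Cuffdiff-like column layout; the header names no unit or software, and aligner, annotation and scaling were not stated. Per the file headers, further columns give a test statistic (a score), a p-value and a q-value. Adjusting the deposited p-values by Benjamini-Hochberg over 11079 tested rows gave the deposited q-values within 5.28e-07. Log2 fold changes (Pim1 knockout over wild type) were computed from FPKM. A normal deviate matching the deposited p is 1.74 times the deposited statistic, so errors printed here are wider than those behind the p-values. Alternatives rescaled fold changes with the narrower errors, or took the statistic as a normal deviate (30 rows with no finite statistic left out). The calling code was tested on simulated data. Depth per library is unknown. Planned limma, edgeR, DESeq2 and leave-one-out fits were not run, since values per library are not held. The design text calls the libraries biological replicates.

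The 7 genes and all lists were chosen with earlier results of these data known, and the promoter motifs after the windows were seen. Some genes of the wider and marker lists are not reported here, and counts and sums of a list leave them out. Named genes were the 7, Pim1, up to 3 called genes of each wider list by smallest adjusted p (ties by test statistic) or its most abundant gene, the CD11b and Gr1 antigens, the 2 most abundant genes of each marker list (given here only where a result turns on them), and the 3 nearest to Cybb. Starts of coordinates are counted from 1. Promoter windows are from RefSeq (GRCm38.p6), which matched 3 of the 7 symbols. Software was Python 3.11.15 with scipy 1.17.1, numpy 2.4.6, pandas 2.3.3 and matplotlib 3.10.9.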

Additional observations from a re-analysis of the deposited data

How the results depend on the processing

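Cybb stayed called as lower under 9 of 10 alternatives (median centring, quantile normalization, equal sums, pseudocounts of 0.1, 1 and 5, a mean of at least 10 FPKM, recomputed adjustment and an adjusted p under 0.01), with log2 fold changes from -0.62 to -0.52. All 9 kept the deposited p or the errors behind it, so they do not check those errors. Recomputing the adjustment repeated the deposited adjusted p and could not change the call. With the deposited test statistic read as a normal deviate its adjusted p was 0.24, and the count of lower calls among the 7 genes was 0. Under that reading the wider lists had 2 higher and 6 lower calls, in place of 13 and 17, and over all genes 366 calls in place of 1498. Rac1, not called under any setting run, changed sign to -0.0050 with median centring and to -0.032 with quantile normalization. The median log2 fold change of the 7 genes, 0.023 with no rescaling, ran from 0.011 with median centring to 0.089 with equal sums over the 6 scalings and pseudocounts. Over all tested genes 984 were called at a pseudocount of 1, 534 at a pseudocount of 5, 715 with a mean of at least 10 FPKM and 973 at an adjusted p under 0.01. No paired analysis was possible because the values used here are pooled per genotype and carry no replicate numbers, and for the same reason no library was left out. The closeness of pooled levels for Rac1 and Rac2 has no replicate check, and low genes such as Vav3, Tiam1, Car2 and Mpo lost their calls at a pseudocount of 1.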
